A study of Mus musculus with 4 samples.

Results

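The genes described here carry the signal of insulin-like growth factor and insulin through Akt to mTORC1 in muscle stem cells. They are 9 of the 55487 gene identifiers in the deposited tables: the receptors Igf1r and Insr, the kinases Akt1 and Akt2, the mTORC1 subunits Mtor and Rptor, the GTPase Rheb, and Tsc1 and Tsc2, which restrain it. They were found by gene symbol, and each symbol matched 1 identifier. The set was chosen by values already seen in these libraries, namely the levels in all 4 and the change with the morpholino within each mouse on counts, TPM and the ratio of count to TPM. Their own values in that comparison are therefore given as a description. Where the fit over all genes called or did not call them, the count stands beside the share over all genes and supports nothing.

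The libraries came from satellite cells, the resident stem cells of skeletal muscle, of 2 mice carrying Tg:Pax7-nGFP, a transgene in which Pax7 regulatory sequence drives a nuclear green fluorescent protein. Muscle was minced and exposed to a vivo-morpholino, an antisense oligomer able to enter cells unaided, while it was being digested, and the cells were isolated afterwards. One group received a control morpholino and the other a morpholino that blocks inclusion of exon 6 of Numb, an adaptor protein of endocytosis. Each mouse gave 1 library of each kind, so there were 2 libraries per group, no untreated library, and the same transgene in both groups. Age is not given in the sources used here.

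Insulin-like growth factor and insulin bind receptor tyrosine kinases at the cell surface, which recruit adaptor proteins and PI3-kinase and so activate Akt. Akt phosphorylates and inhibits the TSC complex, a GTPase-activating protein that holds Rheb in its inactive form, and active Rheb switches on mTORC1, the kinase complex of Mtor and Rptor that promotes protein synthesis and growth and restrains autophagy. In satellite cells this route is known for its part in the passage from quiescence to activation and in growth and differentiation of myoblasts, and much of it is controlled by phosphorylation, which transcript levels do not show.

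The estimated counts summed to between 230431665 and 355411827 per library. For genes with 1 annotated transcript they equalled TPM times transcript length times a constant of the library, within 1% for at least 99.96% of these genes. That relation would also hold for counts of sequenced fragments if TPM was computed from them, so it does not show what was counted. The counts are treated as estimates, the depth in fragments is unknown, and no counting interval is given. Summed levels of 9 satellite cell markers ran from 13240 to 14880 CPM (library-scaled counts, with TMM factors), against 2259 to 2702 for 7 markers of fibro-adipogenic progenitors, 220.9 to 247.1 for 7 of mature myofibres and 154.9 to 480.4 for 4 of erythroid cells. The 10 leukocyte markers summed to 20.56 and 21.12 CPM in the controls and to 27.09 and 32.85 CPM in the Numb exon 6 libraries, and the 4 adipocyte markers to at most 0.603 CPM. With the Numb exon 6 morpholino 6 of the 10 leukocyte markers were higher in both mice and 2 lower, of the 4 erythroid markers 4 were higher, and of the 9 satellite cell markers 5 were higher and 1 lower. The numbers higher and lower were 3 and 0 of 7 for endothelium, 4 and 1 of 7 for fibro-adipogenic progenitors, 2 and 0 of 5 for glia, 3 and 1 of 7 for myofibres and 2 and 0 of the 2 adipocyte markers tested. Over all 27551 genes tested, 7731 were higher and 7535 lower in both mice. The summed level was higher with the Numb exon 6 morpholino in both mice for every list except that of fibro-adipogenic progenitors, which had 2702 and 2686 CPM in mouse 1 and 2259 and 2451 CPM in mouse 2. The sums were 160.0 and 201.1 CPM and 146.3 and 155.1 CPM for endothelium, and 25.47 and 44.77 CPM and 22.53 and 27.05 CPM for glia. None of the markers was at 0 in all 4 libraries, and the part of these cells in the values below was not tested. Numb itself had 44.63 CPM (control) and 60.25 CPM (Numb exon 6) in mouse 1 and 53.84 and 58.66 CPM in mouse 2, and values per gene do not show whether its exon 6 was skipped.

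Levels can be compared between genes only on a scale that allows for transcript length, here TPM. Rheb was the most abundant, with a mean of 315.7 TPM ± 10.2 (SD over the 4 libraries), and Akt2 followed with 163.3 ± 81.4. Akt1 had a mean of 40.4 ± 5.18 TPM and Igf1r of 32.8 ± 4.25, and the ranges of the pair overlapped. Tsc2 had 24.5 ± 0.833 TPM and Tsc1 20.7 ± 2.69, again with overlapping ranges. Rptor had 15.0 ± 0.625 TPM, Insr 10.1 ± 2.54 and Mtor 5.62 ± 0.412. Every other pair of neighbours in this order had ranges that did not overlap. Rptor and Mtor, both subunits of mTORC1, thus differed in transcript level in each library, and the small GTPase that activates the complex exceeded both. Fewer expressing cells and less RNA per cell cannot be told apart in these bulk libraries.

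**Figure D1:**
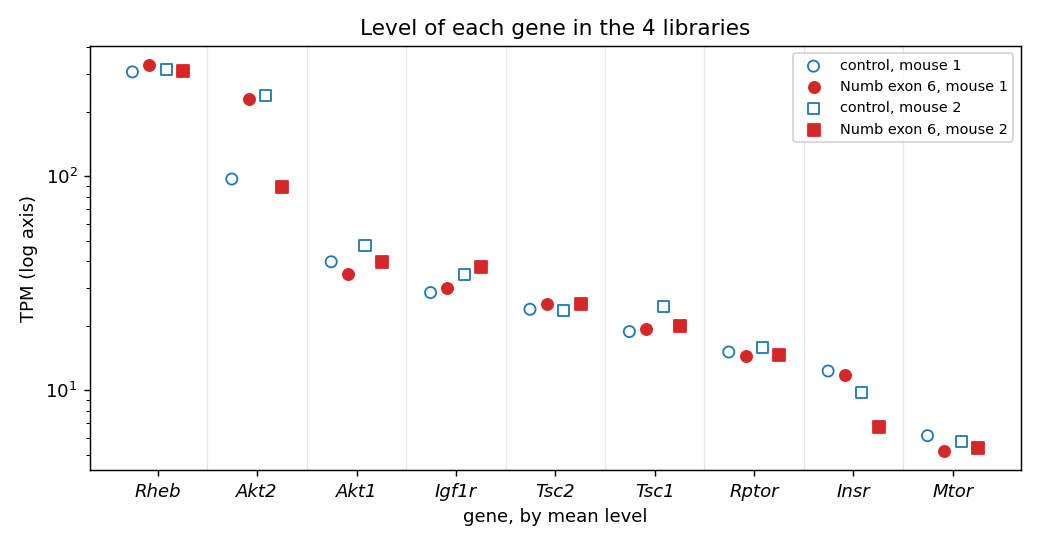
TPM of the 9 genes (log axis) in each of the 4 libraries, with open symbols for the control and filled symbols for the Numb exon 6 morpholino, circles for mouse 1 and squares for mouse 2. Rheb lies between 307.5 and 330.4 TPM in all 4 libraries, while Akt2 is split into a low pair of 88.7 and 97.1 TPM and a high pair of 229.7 and 237.6 TPM, each with 1 library of either group.

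The study set the Numb exon 6 morpholino against the control morpholino to find genes that differ in expression. Of the 9 genes, 0 were called by edgeR's quasi-likelihood test at an adjusted p under 0.05, against 0% of the 27551 genes tested (0 genes). DESeq2 called 0 of the 9, against 0.236% of all genes (65), and with the mouse as a block 0 of the 9 against 0.57% (157). These shares count as not called the genes without a DESeq2 adjusted p, 1069 and, with the block, 4274. None of the 9 was among them. Below an unadjusted edgeR p of 0.05 the counts were 0 of 9 against 4.16% of all genes, and with the mouse as a block 1 of 9 (Akt1) against 6.09%. On CPM, Igf1r, Akt1, Rptor and Tsc1 were lower with the Numb exon 6 morpholino in both mice and none was higher in both. Among the 8469 genes with a mean log2 CPM of 3 or more, 30.2% were lower and 31% higher in both mice. Groups that did not overlap, with both Numb exon 6 libraries on 1 side of both controls, were found on CPM for 2 genes lower (Akt1 and Rptor, against 16.5% of the 8469) and for 0 higher (17.1%). On TPM they were found for 3 lower (Akt1, Mtor and Rptor, against 11.6%) and for 1 higher (Tsc2, 23.3%). Since these values helped to choose the genes, nothing is read from these counts. The SE of the fold changes below takes in the difference between the mice, and n is 2 libraries per group throughout. Where a pair of values is given for a mouse, the control comes first.

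**Figure D2:**
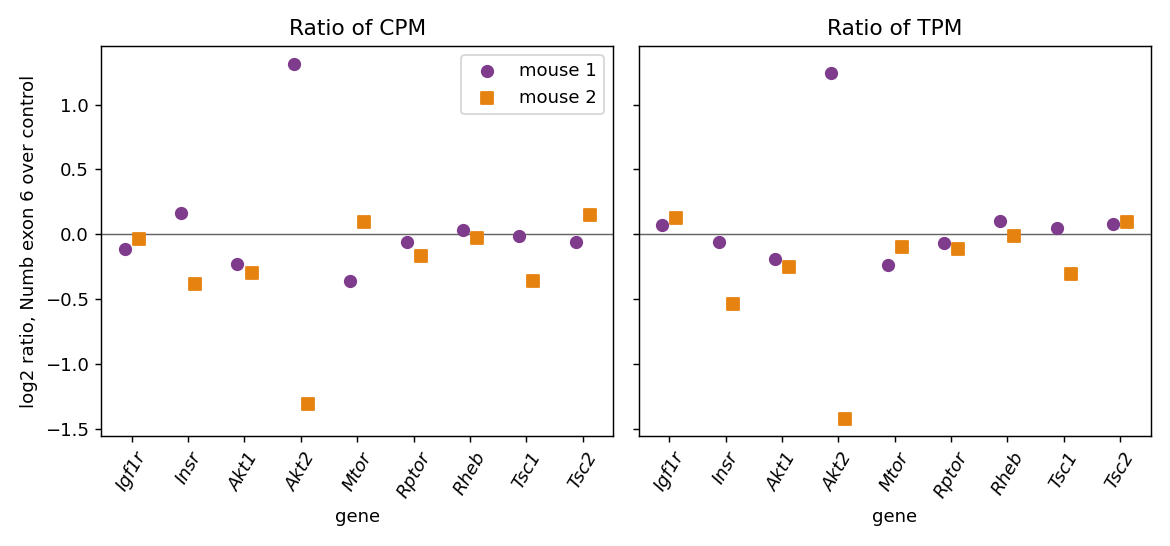
Log2 ratio of the Numb exon 6 library over the control library within each mouse (circles mouse 1, squares mouse 2), from CPM on the left and from TPM on the right. Akt2 lies at 1.32 and -1.31 on CPM and at 1.24 and -1.42 on TPM, and all other ratios lie between -0.54 and 0.16.

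Igf1r (GRCm38 chromosome 7, 67952827 to 68233668, plus strand, 6 annotated transcripts) encodes the receptor for insulin-like growth factors. In mouse 1 Igf1r had 144.5 CPM in the control library against 133.7 CPM in the Numb exon 6 library, and in mouse 2 it had 152.0 against 147.8 CPM. In each mouse the Numb exon 6 library was slightly the lower, and the groups overlapped across mice. The log2 fold change was -0.07 ± 0.12 (SE). In TPM the order was the other way round. The values were 28.6 and 30.1 TPM in mouse 1 and 34.8 and 37.8 TPM in mouse 2, so the Numb exon 6 library was the higher in each. The log2 ratios were -0.11 and -0.04 on CPM and 0.07 and 0.12 on TPM. At a fixed transcript length the TPM ratio exceeds the CPM ratio by 0.077 in mouse 1 and 0.034 in mouse 2 through library scaling alone, and the rest of the gap lies in transcript length.

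The deposited count divided by the deposited TPM, and by a constant of the library, gives the mean length of a gene's transcripts, weighted by their TPM. For Igf1r this mean length was 9378 nt with the control and 8700 nt with the Numb exon 6 morpholino in mouse 1, and 8393 and 7684 nt in mouse 2. The difference of Numb exon 6 from control was -678.9 nt in mouse 1 and -709.6 nt in mouse 2. Igf1r-201, of 11409 nt and 21 exons, is its single annotated protein-coding transcript, and the other 5 are retained-intron models of at most 2668 nt. If the authors counted against these models, the mean lengths bound the share of Igf1r-201. It took 76.8% to 81.0% of Igf1r TPM in the control and 69.0% to 74.6% with the Numb exon 6 morpholino in mouse 1, and 65.5% to 71.8% and 57.4% to 65.1% in mouse 2. In TPM this amounts to 21.96 to 23.2 and 20.8 to 22.5 in mouse 1, and to 22.8 to 24.95 and 21.7 to 24.6 in mouse 2, so the bounds for the coding transcript overlapped within each mouse. The short models together held 5.44 to 6.65 and 7.64 to 9.33 TPM in mouse 1 and 9.82 to 12.0 and 13.2 to 16.1 TPM in mouse 2. Those bounds did not overlap within either mouse, and they are limits set by arithmetic, not errors of measurement.

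Insr (chromosome 8, 3122061 to 3279617, minus strand, 5 annotated transcripts) encodes the insulin receptor. In mouse 1 Insr had 18.1 CPM in the control library against 20.2 CPM in the Numb exon 6 library, and in mouse 2 it had 12.0 against 9.14 CPM. Both libraries of mouse 1 lay above both of mouse 2, while the groups overlapped. The log2 ratios were 0.16 and -0.39, and the log2 fold change was -0.03 ± 0.42 (SE). In TPM it stood at 12.3 and 11.8 in mouse 1 and at 9.73 and 6.70 in mouse 2, lower with the Numb exon 6 morpholino in each (log2 ratios -0.06 and -0.54). Its mean transcript length was 2730 and 3363 nt in mouse 1 and 2362 and 2683 nt in mouse 2. That is 25.2% to 35.9% of the length of Insr-201, the transcript of 9355 nt with 21 exons, where the mean length of Igf1r was 67.3% to 82.2% of the length of Igf1r-201. The mean lengths allow Insr-201 at most 24.75%, 31.9%, 20.6% and 24.2% of Insr TPM in the same order of libraries, so most of the TPM of this gene was placed on models of at most 4019 nt.

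Akt1 (chromosome 12, 112653821 to 112674884, minus strand, 9 annotated transcripts) encodes the isoform of Akt tied most closely to growth. In mouse 1 Akt1 had 47.9 CPM in the control library against 40.7 CPM in the Numb exon 6 library, and in mouse 2 it had 56.3 against 45.7 CPM. Both Numb exon 6 libraries lay below both controls, on CPM and also in TPM (39.9 and 34.8 in mouse 1, 47.4 and 39.7 in mouse 2). The log2 ratios were -0.23 and -0.30 on CPM and -0.20 and -0.26 on TPM, and the log2 fold change was -0.27 ± 0.15 (SE), or -0.27 ± 0.10 with the mouse as a block. Its mean transcript length of 2230 to 2290 nt differed within a mouse by 60.2 nt at most. Of the 9 genes, Akt1 and Rptor were the ones whose groups did not overlap on either scale.

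Akt2 (chromosome 7, 27591552 to 27640826, plus strand, 14 annotated transcripts) encodes the isoform known for insulin-stimulated glucose uptake in muscle and fat. In mouse 1 Akt2 had 158.0 CPM in the control library against 393.1 CPM in the Numb exon 6 library, and in mouse 2 it had 399.7 against 161.0 CPM. The Numb exon 6 library of mouse 1 and the control of mouse 2 were thus high, and the remaining pair low. The ratio of Numb exon 6 to control on the log2 scale was 1.32 in mouse 1 but -1.31 in mouse 2, which left a fitted log2 fold change of -0.01 ± 0.58 (SE). In TPM the levels were 97.1 and 229.7 in mouse 1 and 237.6 and 88.7 in mouse 2, a 2.37-fold and a 0.373-fold change. Among the 8469 genes above, 8 (0.0945%) differed over 2-fold in opposite directions in the mice, and Akt2 is 1 of them.

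Reads of Akt2 could be shared with close relatives, and the following stretches show how far that is possible. Akt1-201 and Akt2-201 aligned over 1429 nt with 78.4% identity, and their longest run in common was 32 nt. That run is printed with the 20 nt on each side, 5′ to 3′, with the 9 differing positions in capitals (Akt1-201 from 1437 to 1508, Akt2-201 from 1235 to 1306, counted from the start of each GENCODE vM21 transcript).
Akt1-201: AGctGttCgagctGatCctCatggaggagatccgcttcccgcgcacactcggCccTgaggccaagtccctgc
Akt2-201: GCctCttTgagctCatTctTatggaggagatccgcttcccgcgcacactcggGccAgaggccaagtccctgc
The processed pseudogene Akt2-ps (GRCm38 chromosome 11, 16514533 to 16515981, plus strand) aligned with Akt2-201 over 1446 nt with 98.8% identity and shared a run of 221 nt. The end of that run is printed with the 20 nt beyond it and its 1 differing position in capitals (Akt2-201 from 1102 to 1171, Akt2-ps from 940 to 1009).
Akt2-201: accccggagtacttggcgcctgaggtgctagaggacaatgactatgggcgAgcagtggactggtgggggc
Akt2-ps: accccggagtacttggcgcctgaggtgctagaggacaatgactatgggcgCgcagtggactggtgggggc

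Of the 7350 distinct 50-nt words in Akt2 transcripts, 717 (9.76%) also occur in Akt2-ps and none in a transcript of any other gene, while Akt1 shared 0 of 4182 with any other gene. How the authors' counting placed reads that fit both Akt2 and Akt2-ps is not given in the sources used here. Akt2-ps, chosen after its values were seen, stood at 10.1 and 11.7 CPM in mouse 1 and at 11.1 and 10.1 CPM in mouse 2, with log2 ratios of 0.21 and -0.14. On CPM and TPM its highest libraries were those with high Akt2, over a narrower range. The part of shared reads in this order was not tested. The nearest protein-coding genes on either side of Akt2 are 2310022A10Rik and Ttc9b. 2310022A10Rik stood at 13.0 and 16.2 CPM in mouse 1 and at 11.8 and 12.7 CPM in mouse 2, without the order of Akt2, and Ttc9b was at no more than 0.197 CPM in any library. Of the 8 marker lists, 0 had a summed level that was higher in both libraries with high Akt2 than in both others. The share of all genes with that order was not counted, so nothing is read from this count. The part of other cells in the Akt2 values was not tested.

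The profile of Akt2 across the 4 libraries was then matched against all other genes of that level. Fam214b, Tbl1xr1 and Olfml3 lay nearest, at distances of 0.219, 0.321 and 0.359 between centred log2 CPM profiles over 8468 genes. Fam214b stood at 29.6 and 61.1 CPM in mouse 1 and at 62.4 and 27.0 CPM in mouse 2. Tbl1xr1, a subunit of a nuclear corepressor complex, stood at 21.8 and 41.4 CPM and at 47.3 and 21.9 CPM. Olfml3, an olfactomedin-like secreted protein, stood at 22.4 and 47.2 CPM and at 40.1 and 18.2 CPM. The match rests on 4 libraries and is a description.

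**Figure D3:**
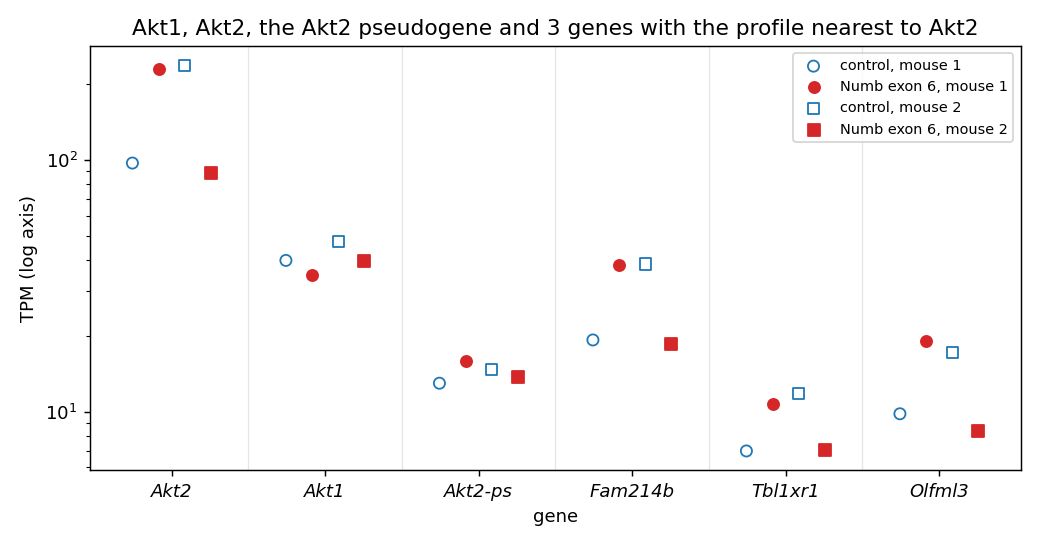
TPM (log axis) of Akt2, Akt1, the pseudogene Akt2-ps and the 3 genes with the profile nearest to Akt2, in each library (open control, filled Numb exon 6; circles mouse 1, squares mouse 2). Akt2 and its 3 nearest genes are high with the Numb exon 6 morpholino in mouse 1 and with the control in mouse 2. Akt2-ps is highest in the same libraries, over a narrower range of 13.0 to 15.8 TPM.

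The mean transcript length of Akt2 was 3021 nt with the control and 3351 nt with the Numb exon 6 morpholino in mouse 1, and 3231 and 3571 nt in mouse 2. It was longer with the Numb exon 6 morpholino by 330 nt and 340 nt, whichever way the level went. Among 9284 genes with more than 1 transcript and a mean count of at least 1000, 87.5% in mouse 1 and 86.5% in mouse 2 had a smaller absolute log2 change in length. Akt2-205, of 4544 nt, is its longest model and the next measures 3122 nt. The mean lengths place at least 16.1% of Akt2 TPM on Akt2-205 with the Numb exon 6 morpholino in mouse 1, 7.69% in the control of mouse 2 and 31.6% with the Numb exon 6 morpholino in mouse 2, and allow 0% in the control of mouse 1. The upper limits were 63.1% to 76.4%, so the share was not tightly bound.

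Mtor (chromosome 4, 148448611 to 148557683, plus strand, 4 annotated transcripts) encodes the kinase shared by both mTOR complexes. In mouse 1 Mtor had 24.5 CPM in the control library against 19.2 CPM in the Numb exon 6 library, and in mouse 2 it had 19.6 against 20.9 CPM. The control of mouse 1 was the highest, and the groups overlapped. The log2 ratios were -0.36 and 0.09, and the log2 fold change came to -0.14 ± 0.18 (SE). In TPM the values were 6.13 and 5.20 in mouse 1 and 5.76 and 5.39 in mouse 2, with both Numb exon 6 libraries below both controls. Its mean transcript length was 7428 and 7208 nt in mouse 1 but 6528 and 7624 nt in mouse 2, a gain of 1096 nt. As a log2 ratio of lengths (0.22) that change exceeded the absolute change of 93.3% of the 9284 genes. Mtor-202, of 8564 nt and 58 exons, took 67.9% to 74.4% of Mtor TPM in the control of mouse 2 and 85.2% to 88.2% in its Numb exon 6 library, against 82.1% to 85.7% and 78.6% to 83.0% in mouse 1. The control of mouse 2 was the library that stood apart.

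Rptor (chromosome 11, 119602905 to 119899576, plus strand, 12 annotated transcripts) encodes the scaffold that brings substrates to mTORC1. In mouse 1 the control had 46.3 and the Numb exon 6 library 44.5 CPM, and in mouse 2 these were 46.6 and 41.6 CPM, with both Numb exon 6 libraries below both controls. The same held in TPM, at 15.1 and 14.4 in mouse 1 and 15.8 and 14.6 in mouse 2. Its fitted log2 fold change of -0.11 ± 0.12 (SE) was smaller than its error. An antisense gene, Rptoros, overlaps 84 nt (0.624%) of its exons and reached at most 0.448 CPM.

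Rheb (chromosome 5, 24802823 to 24842624, minus strand, 4 annotated transcripts) encodes the GTPase that activates mTORC1. In mouse 1 the control had 310.7 and the Numb exon 6 library 317.3 CPM, and in mouse 2 these were 305.8 and 299.8 CPM. Its range of 0.082 in log2 CPM over the 4 libraries was the narrowest of the 9 genes, against 1.34 for Akt2. In TPM it had 307.5 and 330.4 in mouse 1 and 314.1 and 310.8 in mouse 2, and the groups overlapped on both scales. The log2 fold change was 0.002 ± 0.102 (SE). Its mean transcript length of 1870 to 1897 nt lay close to the 1784 nt of Rheb-201, its single protein-coding transcript. That does not fix the share of Rheb-201. The mean lengths allow from 0% to at most 39.0% of Rheb TPM on Rheb-203, a retained-intron model of 4046 nt.

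Tsc1 (chromosome 2, 28641228 to 28691167, plus strand, 11 annotated transcripts) encodes hamartin, the scaffold of the TSC complex. In mouse 1 the control had 32.2 and the Numb exon 6 library 31.8 CPM, and in mouse 2 these were 42.3 and 32.9 CPM. The control of mouse 2 was high and the other three lay close together. The log2 ratios were -0.01 and -0.36, the log2 fold change was -0.20 ± 0.18 (SE), and without the control of mouse 2 it was 0.002. In TPM Tsc1 had 18.8 and 19.4 in mouse 1 and 24.7 and 19.9 in mouse 2, with the same library high. Tsc2 (chromosome 17, 24595816 to 24632630, minus strand, 22 annotated transcripts) encodes tuberin, the subunit that acts on Rheb. In mouse 1 the control had 51.3 and the Numb exon 6 library 49.2 CPM, and in mouse 2 these were 46.3 and 51.4 CPM, and the groups overlapped, with a log2 fold change of 0.04 ± 0.13 (SE). In TPM both Numb exon 6 libraries (25.2 each) lay above both controls (23.9 and 23.7). The log2 ratios of Tsc2 were -0.06 and 0.15 on CPM and 0.08 and 0.09 on TPM. As given for Igf1r, library scaling alone raises a TPM ratio over its CPM ratio by 0.077 in mouse 1 and 0.034 in mouse 2. Pkd1, on the other strand, overlaps 693 nt (7.20%) of the exons of Tsc2, and the library method does not mark strand. The counts of Tsc2 and Pkd1 pooled had log2 ratios of 0.03 and 0.17. Of the 10179 distinct 50-nt words in Tsc2 transcripts, 829 (8.14%) also occur in transcripts of 112 other genes, on either strand.

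Across the 9 genes, the scale decided the direction within a mouse for Igf1r in both mice, for Insr in mouse 1, for Mtor in mouse 2, and for Tsc1 and Tsc2 in mouse 1. The changes in mean length within a mouse ran from 4.78 nt for Rheb to 1096 nt for Mtor. The median absolute log2 change over the 9284 genes was 0.032 in each mouse. Igf1r (-0.11 and -0.13), Insr (0.30 and 0.18) and Akt2 (0.15 and 0.14) exceeded it in both mice with the same sign, whereas the changes of Akt1, Mtor, Rptor, Tsc1 and Tsc2 changed sign between the mice. With 1 library per group in each mouse these changes have no replicate within an animal.

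**Figure D4:**
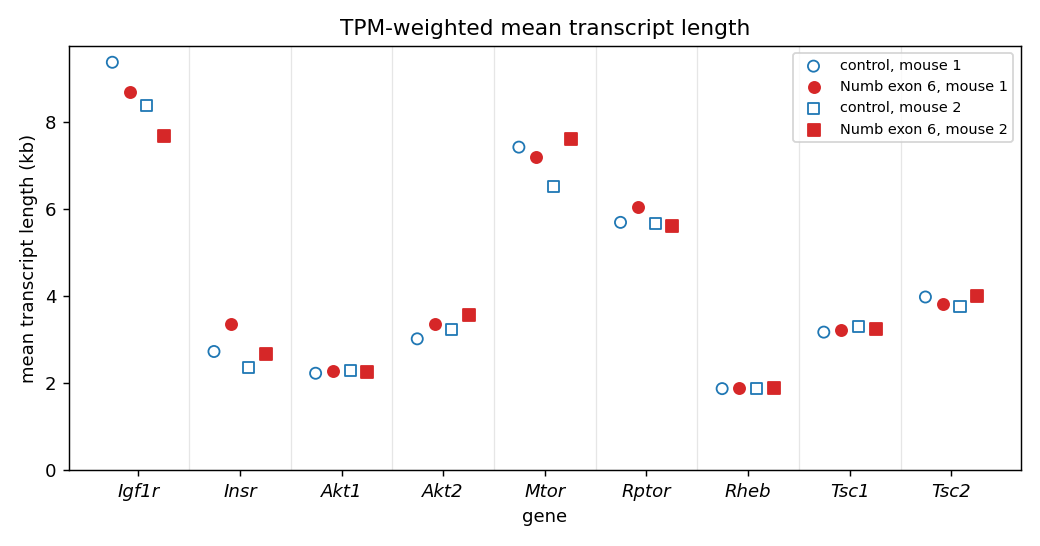
Mean transcript length in kb, weighted by TPM, of the 9 genes in each library (open control, filled Numb exon 6; circles mouse 1, squares mouse 2). Igf1r falls from control to Numb exon 6 in both mice, Insr and Akt2 rise in both, and Rheb stays between 1870 and 1897 nt.

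The mice were also compared with each other, 1 animal against 1, so that an SE measures only the spread between the libraries of an animal. Insr was lower in mouse 2, with a log2 difference of -0.86 ± 0.19 (SE, n = 2 libraries per mouse), and both of its libraries lay below both of mouse 1 on CPM and TPM. Igf1r and Tsc1 also separated by mouse on both scales, with both libraries of mouse 2 above both of mouse 1. Rheb separated on CPM only, with mouse 2 the lower. The share of all genes that separate by mouse in this way was not counted. The other log2 differences were 0.11 ± 0.10 for Igf1r, 0.20 ± 0.15 for Akt1, 0.03 ± 0.56 for Akt2, -0.11 ± 0.17 for Mtor, -0.04 ± 0.12 for Rptor, -0.05 ± 0.09 for Rheb, 0.23 ± 0.15 for Tsc1 and -0.04 ± 0.11 for Tsc2. By edgeR 0 of the 9 were called at an adjusted p under 0.05, against 0.0254% of the 27551 genes (7). An unadjusted edgeR p under 0.05 was reached by 1 of the 9 (Insr), beside 2290 of the 27551 genes. The levels helped to choose the genes, so these differences too are a description. The erythroid marker sum also differed between the mice, at 154.9 and 259.3 CPM in mouse 1 and 422.9 and 480.4 CPM in mouse 2. Its part in the difference of Insr was not tested.

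The other genes of the route were taken as 11 lists of 145 genes, of which 144 were tested. By edgeR 0 were called higher and 0 lower, and 8 had an unadjusted p under 0.05 (21 with the mouse as a block), beside the shares of 4.16% and 6.09% over all genes. DESeq2 called 0 of them, against 0.236% of all genes, and with the mouse as a block 2 of the 144 (Pdk4, higher, and the adaptor Grb2, lower), against 0.57%. Grb2 stood at 73.4 and 28.2 CPM in mouse 1 and at 85.3 and 75.2 CPM in mouse 2 (log2 ratios -1.38 and -0.18). The groups of Grb2 overlapped, the Numb exon 6 library of mouse 1 stood apart, and the edgeR adjusted p was 0.999. The median log2 fold change of the 144 genes was 0.04, against 0.005 over all genes tested and -0.075 for the 9 genes. In both mice 53 of the 144 were higher and 33 lower, against 7731 and 7535 of the 27551. Among the 8469 genes with a mean log2 CPM of 3 or more, 31% were higher and 30.2% lower. The 144 were not limited to that level. The 12 transcripts that mTORC1 raises through ATF4 had a median of -0.15, and in both mice alike 8 of them were lower and 3 higher. The 12 that it raises through SREBP had a median of 0.19, with 8 higher and 1 lower. The 12 that FoxO raises and Akt lowers had a median of 0.07, with 6 higher and 1 lower. An unadjusted edgeR p under 0.05 was reached by 1 of the ATF4, 0 of the SREBP and 1 of the FoxO transcripts, and with the block by 2, 4 and 2 of them.

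In the other lists the medians were 0.10 for ligands and binding proteins, -0.01 for receptor adaptors, 0.02 for PI3-kinase and its brakes, 0.05 for the Akt branch, -0.05 for mTOR complex subunits, -0.002 for the TSC, Rag and amino acid sensing genes, 0.08 for energy and stress inputs and 0.02 for mTORC1 substrates and outputs. In both mice 5 of 12 ligands and binding proteins were higher and 1 lower, 9 of 30 TSC, Rag and amino acid sensing genes were higher and 8 lower, and 1 of 8 mTOR complex subunits was higher and 2 lower. Transcripts of both ligands were detected. Igf1 stood at 59.3 and 65.5 CPM in mouse 1 and at 56.7 and 71.0 CPM in mouse 2, and Igf2 at 26.4 and 23.4 CPM and at 32.0 and 29.8 CPM.

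The genes of these lists with the smallest p and 1 direction in both mice are named next, and none passed in edgeR. Pdk4, a pyruvate dehydrogenase kinase and FoxO target, stood at 70.4 and 140.4 CPM in mouse 1 and at 100.8 and 126.3 CPM in mouse 2 (log2 fold change 0.64 ± 0.20, SE; edgeR adjusted p = 0.999). Irs1, the adaptor that links the receptors to PI3-kinase, stood at 36.3 and 48.3 CPM and at 35.8 and 44.3 CPM (0.36 ± 0.13), and the adaptor Sh2b1 at 21.0 and 25.4 CPM and at 19.7 and 29.1 CPM (0.42 ± 0.15). For each of these 3 both Numb exon 6 libraries lay above both controls. Tbc1d1, a Rab GTPase-activating protein phosphorylated by Akt, stood at 91.5 and 73.0 CPM and at 85.4 and 65.5 CPM (-0.35 ± 0.12). Castor2, of the arginine sensor family, stood at 22.1 and 17.8 CPM and at 23.3 and 17.3 CPM (-0.37 ± 0.14), and Slc7a5, an amino acid transporter, at 132.4 and 105.0 CPM and at 117.0 and 101.9 CPM (-0.27 ± 0.12). For these 3 both Numb exon 6 libraries lay below both controls, and the edgeR adjusted p was 0.999 for all 6.

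**Figure D5:**
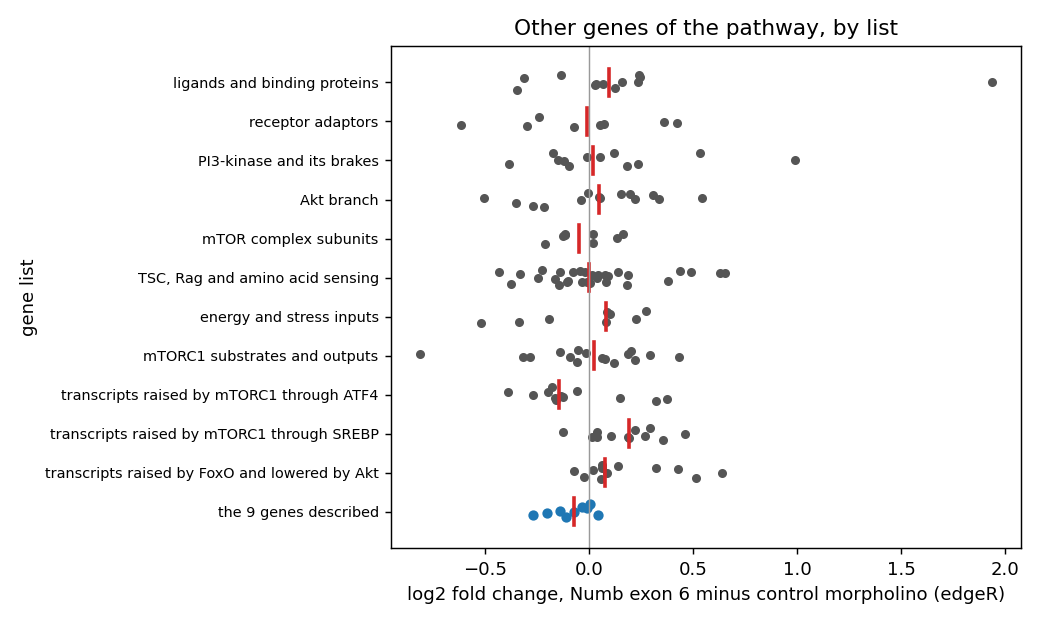
Log2 fold change of each tested gene (points) by list, with the list median as a red bar, for the other genes of the pathway (grey) and the 9 genes described (blue). Medians lie between -0.15 for ATF4-driven and 0.19 for SREBP-driven transcripts, and no point passed the edgeR test.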

How the data were processed

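The members and gene lists were chosen with earlier results of these data known. Per the submitters' processing notes, GRCm38, HISAT2 2.1.0 and StringTie 1.3.6 were used. The annotation release is not given in the sources used here, nor is the placing of reads that fit several genes. SMART-Seq2 cDNA was made from 5 ng of RNA for each library, per the labels' protocols, and this method keeps no strand. The authors' deposited estimated counts are whole numbers. They were treated as estimates, not as the raw read counts that the design had assumed, and entered the tests as deposited. The authors also deposited TPM, scaled to length and library.

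The count test was edgeR 4.0.16 (R 4.3.3) with robust quasi-likelihood fits across all genes, TMM factors, filterByExpr and Benjamini-Hochberg adjusted p under 0.05, without a block. The libraries pair by animal. After group means were removed, those of a mouse correlated across genes at 0.401 (mean log2 CPM of 3 or more). CPM ratios used log2 with a prior count of 2. P-values measure the spread between these libraries.

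Mean transcript length is count / TPM divided by a constant per library, the median over 2084 to 2614 genes with 1 GENCODE vM21 transcript and over 500 counts, of which at least 99.96% fitted within 1%. Words of 50 nt were matched on both strands of all vM21 transcripts, and alignments were local (Biopython 1.88). Named pathway genes are those called, or else the 3 per direction with the smallest p, 1 direction in both mice and a mean log2 CPM of 3 or more. Profile likeness refers to the member of widest range. The alternatives were the mouse block, RLE factors, other filters, DESeq2 1.42.0, limma 3.58.1 on log2(TPM + 1) and log2(TPM + 0.1), each library left out, and other calibrations. Without a block, edgeR, DESeq2 and limma on log2(CPM + 1) were checked on simulated counts with known changes. All made a larger share of false calls than the threshold allows, DESeq2 the largest. The simulated libraries were independent and held no difference between mice. The blocked fits and limma on TPM were not checked in this way.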

Additional observations from a re-analysis of the deposited data

Results flagged for a closer look

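Akt2 moved in opposite directions in the mice. Its log2 CPM ratio of Numb exon 6 over control was 1.3153 in mouse 1 and -1.3118 in mouse 2, from 1 library per group in each, so the difference between the mice was not tested. On TPM the ratios were 1.242 and -1.422.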

How the results depend on the processing

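In the morpholino comparison the number of genes called was 0 in edgeR, with 1145 at an unadjusted p under 0.05. It was also 0 with the mouse as replicate block, with RLE factors and in limma on both TPM scales, but 10 without a filter on low counts, 1 when 2 libraries had to reach a CPM of 5, 65 in DESeq2 and 157 in DESeq2 with the replicate block. With each library left out it ran from 0 to 1, the latter without the control of mouse 1 or the Numb exon 6 library of mouse 2. Of the pathway genes 0 were called in each of these, except 2 in DESeq2 with the block (Pdk4, adjusted p = 0.0192, and the adaptor Grb2, adjusted p = 0.0462). In the mouse comparison 7 genes were called in edgeR and with RLE factors, 1 with the morpholino as a term, 119 without a filter, 490 in DESeq2, 653 in DESeq2 with the replicate block and 4 in limma on log2(TPM + 1). The cause of these differences was not tested.

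Of 108 fold changes of the 9 genes under the alternatives, 92 kept their sign, 7 moved by over 1 SD and 0 were called. Akt1 and Rptor kept it in all 12, at -0.38 to -0.16 and -0.16 to -0.06. Their groups did not overlap on CPM or TPM, so these alternatives could hardly turn the sign. Nothing is read from that count. With single libraries left out Akt2 ran from -0.79 to 0.80 and Insr from -0.72 to 0.43, and Tsc1 was 0.002 without the control of mouse 2. Other calibrations moved no mean transcript length by more than its SD over the libraries. The 2 libraries per group limit all of these values.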
